A study of Rattus norvegicus with 46 samples.

Results

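The genes described here carry dietary fat through the absorptive cell of the rat duodenum. They are 10 genes: Apoa1, Apoa4, Apob, Apoc2, Apoc3, Mttp, Fabp1, Fabp2, Cd36 and Dgat1. Members were found as the probe sets to which the array's annotation gives exactly 1 of these symbols. That gave 11 probe sets of the 31042 examined, with 2 for Apob and 1 for each other gene. All 11 passed the filter on dim probe sets, which kept 26517 in all. A further probe set carries Cd36 together with a second symbol and was left out.

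Enterocytes take up fatty acids and monoglycerides at the brush border, rebuild triglyceride at the endoplasmic reticulum and load it onto apolipoprotein B to form chylomicrons, which leave for the lymph. Fat is absorbed mainly by the mature cells of the upper villus, while new cells arise in the crypts and differentiate as they climb. Several of the apolipoproteins are also made by the liver.

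Levels were measured on Affymetrix rat arrays in sections cut across the crypt-villus axis of the proximal duodenum. For each rat, 1 array held the top segment and 1 the bottom segment of the villus, from the 2 ends of its length. Wistar rats (++) were 1 month old when they were allotted and were either fed normally (control, 4 rats), made iron-deficient over 4 weeks by a diet low in iron together with the removal of 2 to 3 ml of blood every 3 days (4 rats), or treated in the same way and then given 50 µM ferric ammonium citrate to drink for 3 days (iron-repleted, 3 rats). Belgrade rats (bb), on the Wistar background, carry a point mutation of Slc11a2, the apical iron transporter DMT1. They were fed normally (4 rats), or received iron for 3 days (4 rats) or 6 days (3 rats). All rats were fasted overnight before they were killed, and no age was given for the bb rats. As a model, the low-iron diet came together with bleeding, and the bb rats carry the mutation in every tissue. Because the Belgrade defect is a point mutation, the level of the Slc11a2 transcript does not check the genotype. From 1 further Wistar rat, handled in an experiment of its own, 2 arrays are labelled lower and upper crypt.

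Median array intensities in the villus ranged from 597 to 1179. The arrays of control rats 1 and 2, and those of bb rats 1 and 2 on a normal diet, were nearly identical. Each pair was averaged, which left 20 counted samples (3 control, 4 iron-deficient, 3 iron-repleted, and 3, 4 and 3 bb). Smooth muscle and stroma markers averaged a log2 level of 15.75 in the bottom array of control rat 3 and 15.51 in that of iron-repleted rat 3, against 12.59 to 14.8 in the other bottom arrays. All 11 exocrine pancreas markers with a probe set exceeded the 40th percentile of the array in 6 bottom arrays, those of control rats 1 and 2, iron-deficient rat 1, bb rat 3, and rat 4 of the 3-day and rat 2 of the 6-day iron group. They did so too in the top arrays of control rats 1 and 2, with means of 11.34 and 11.38, and 9 of 11 did in that of bb rat 3 (9.8), against 7.64 to 8.86 in the other top arrays. In a bulk section, fewer enterocytes and less transcript per enterocyte cannot be told apart. The labels do not say whether littermates were used. The level of Xist, a transcript of female cells, was over 12 on the log2 scale in every bb sample given iron for 6 days. It was so in no iron-deficient sample and in some samples of each other group, so the groups were not balanced in it. A fit with Xist as a covariate changed no call of these genes between groups. The enterocyte list was higher at the top, where 7 of its 7 measured markers were called higher, with a median difference of 2.2 on the log2 scale. Hepatocyte markers averaged 7.57 to 10.15 in the villus top arrays, with at most 4 of 5 above the 40th percentile of the array.

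The promoter set used here holds a sequence upstream of the start for 5 of the 10 genes: Apoa4, Apoc2, Cd36, Fabp1 and Fabp2. The 250 bases before the start are printed here for the 2 genes with the largest difference along the villus, Apoa4 and Apoc2, and for the 2 fatty acid binding proteins, whose differences were unlike. Apoa4 sits in RefSeq's gene order next to Apoc3 and Apoa1 on chromosome 8, with no other listed gene among these 3. Sequences run 5′ to 3′ on the strand of the gene, and capitals mark matches to the motifs searched.
Apoa4, GRCr8 chr8:55435529-55435778, forward strand: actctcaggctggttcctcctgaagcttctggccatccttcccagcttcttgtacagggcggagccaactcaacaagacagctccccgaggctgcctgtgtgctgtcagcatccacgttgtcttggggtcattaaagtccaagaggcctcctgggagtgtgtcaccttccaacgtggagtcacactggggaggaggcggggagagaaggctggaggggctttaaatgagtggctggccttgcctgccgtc
Apoc2, GRCr8 chr1:88462366-88462615, reverse strand: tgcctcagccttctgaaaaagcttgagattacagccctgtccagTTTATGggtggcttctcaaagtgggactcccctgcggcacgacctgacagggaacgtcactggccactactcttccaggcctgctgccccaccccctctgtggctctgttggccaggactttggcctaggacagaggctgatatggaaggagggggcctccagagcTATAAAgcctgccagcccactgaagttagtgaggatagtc
Fabp1, GRCr8 chr4:104749090-104749339, forward strand: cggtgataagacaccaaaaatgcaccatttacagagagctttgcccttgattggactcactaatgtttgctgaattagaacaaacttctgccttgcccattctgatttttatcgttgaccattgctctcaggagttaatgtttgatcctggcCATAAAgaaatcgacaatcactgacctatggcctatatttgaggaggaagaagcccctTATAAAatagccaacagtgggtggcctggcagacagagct
Fabp2, GRCr8 chr2:213724379-213724628, forward strand: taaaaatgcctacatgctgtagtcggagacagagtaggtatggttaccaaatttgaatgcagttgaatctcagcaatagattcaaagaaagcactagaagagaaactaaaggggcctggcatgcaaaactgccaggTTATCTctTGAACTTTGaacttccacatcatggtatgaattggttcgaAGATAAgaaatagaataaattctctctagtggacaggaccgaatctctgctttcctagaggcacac

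The motifs were the TATA box TATAAA, the GATA factor core AGATAA, the CDX factor core TTTATG and the HNF4-type elements CAAAGTTCA and CAAAGTCCA, each read on both strands. These motifs do not share letters where they were found. TATAAA lay at position -40 in both Apoc2 and Fabp1, counted from the start, and at -175 on the reverse strand of Cd36, and occurred in 12.9% of the 33469 promoter windows of the same length. TTTATG lay at -206 in Apoc2 and at -98 on the reverse strand of Fabp1 (11.4% of windows). AGATAA occurred at -66 and, reversed, at -114 in Fabp2 (10.3%). Between these, CAAAGTTCA was found reversed at -106 in Fabp2, a match that 0.281% of windows hold. CAAAGTCCA, in 0.338% of windows, was in none of the 5, and the Apoa4 window held none of the motifs as spelled here. A match is a run of letters and was not tested for function.

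The first comparison asked how these genes change from the bottom to the top of the villus. Of the 11 probe sets, 10 were higher at the top (limma on the difference within each rat, adjusted p under 0.05, averaged over the 6 groups). Across all probe sets, 54.2% were called and 25.5% were called higher. A higher level at the top in all 20 counted samples was seen in 8 of the 11 and in 8.59% of all probe sets. All 10 genes had positive differences, from 0.29 for Mttp to 4.66 for Apoa4, with a median of 2.48 over the 11 probe sets against 0.02 over all probe sets tested. A log2 difference of 2 or more was seen in 1.87% of all probe sets, and one of 4 or more in 0.0943%, or 25 probe sets, 2 of which are Apoa4 and Apoc2. The same top samples and bottom samples enter every gene, so the genes are not independent of each other.

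**Figure D1:**
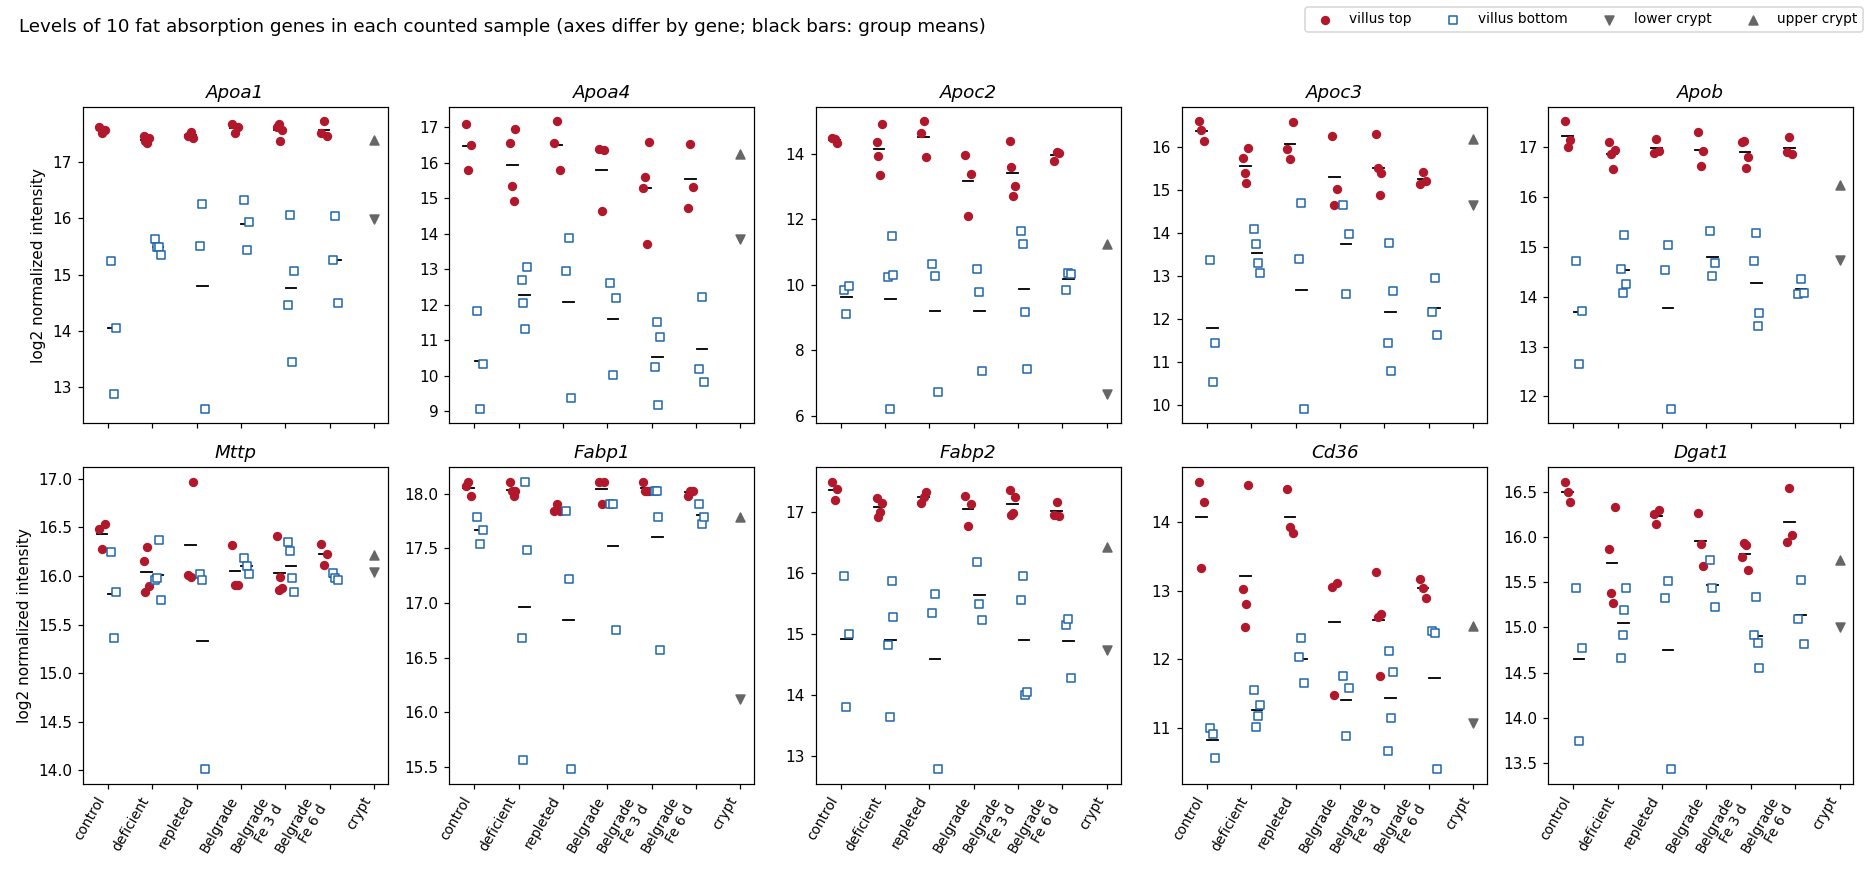
Level of each gene (log2 normalized intensity, vertical axis, scaled separately by gene) in the 20 counted samples of the 6 groups, with villus top as filled circles, villus bottom as open squares, group means as bars and the 2 crypt arrays as triangles. Apoa4 and Apoc2 were at the top at 13.71 or more and 12.11 or more, above every bottom sample of Apoc2 and all but the highest bottom sample of Apoa4, while the Mttp values of both segments lay mostly on each other.

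Apoa4, an apolipoprotein of chylomicrons made in large amounts by the intestine, had the largest difference of the 10. At the top its log2 level was 17.10, 15.79 and 16.51 in control rats, 16.55, 15.35, 14.92 and 16.96 in iron-deficient rats and 16.56, 17.17 and 15.81 in iron-repleted rats. In bb rats the top levels were 16.40, 14.65 and 16.36 on a normal diet, 15.28, 15.60, 13.71 and 16.58 after 3 days of iron, and 14.74, 16.53 and 15.33 after 6 days. At the bottom the 20 samples ran from 9.06 in control rat 3 through a median of 11.42 to 13.89 in iron-repleted rat 2. The top was higher in 20 of 20 samples, by 3.28 to 6.73, and only the highest bottom sample reached above the lowest top sample. The mean difference was 4.66 ± 0.18 (SE, limma adjusted p = 4.8e-12), about 25.3-fold on the scale with the pseudocount.

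Apoc2, the cofactor that activates lipoprotein lipase, showed a difference of 4.31 ± 0.34 (SE, limma adjusted p = 1.07e-08), higher at the top in 20 of 20 samples. Its top levels ran from 12.11 in bb rat 3 through a median of 13.99 to 14.98 in iron-repleted rat 2. Its bottom levels ran from 6.22 in iron-deficient rat 2 through 10.11 to 11.64, so the segments did not overlap. In 4 of 22 bottom arrays Apoc2 was below the 40th percentile of the array, so its lowest bottom values are near background and its difference there is imprecise.

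Apoc3, an inhibitor of lipoprotein lipase and of remnant clearance, was higher at the top by 2.99 ± 0.3 (SE, limma adjusted p = 2.19e-07) and in 20 of 20 samples. Top levels ran from 14.65 in bb rat 3 through 15.62 to 16.6, and bottom levels from 9.92 in iron-repleted rat 3 through 13.02 to 14.71. The segments overlapped slightly, since the highest bottom levels, 14.71 in iron-repleted rat 2 and 14.66 in the averaged bb rats 1 and 2, passed the lowest top level. Apoa1, the main protein of high density lipoprotein, was higher at the top by 2.48 ± 0.21 (SE, limma adjusted p = 2.72e-08). Its top levels were close together, from 17.33 through 17.51 to 17.72, whereas its bottom levels ran from 12.62 through 15.39 to 16.33. The pooled SD within groups was 0.1 at the top and 1.05 at the bottom, while over all probe sets the medians were 0.69 and 0.51. At the top Apoa1 held ranks 7 to 23 of the array, where quantile normalization assigns nearly the same value in each array. Its deposited top intensities, before that scaling, ran from 169100 to 335900, so the SD of 0.1 does not give the spread of Apoa1 at the top as measured.

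Apob, the structural protein on which each chylomicron is built, was measured by 2 probe sets. The brighter one ran from 16.57 through 16.94 to 17.52 at the top and from 11.75 through 14.38 to 15.32 at the bottom, without overlap. Its difference was 2.78 ± 0.18 (SE, limma adjusted p = 9.31e-10), in 20 of 20 samples. The dimmer one differed by 2.48 ± 0.31 (SE, limma adjusted p = 2.74e-06) in 18 of 20 samples. It was below the 40th percentile in 16 of 22 bottom arrays, so its bottom levels lie near background. In bb rats on a normal diet the dimmer probe set differed by 0.26 (limma adjusted p = 0.879), and its most opposed sample was bb rat 3, with -2.15.

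Mttp, the microsomal triglyceride transfer protein that loads lipid onto apolipoprotein B, was the 1 gene not called. Its top levels ran from 15.83 through 16.13 to 16.97 and its bottom levels from 14.01 through 15.98 to 16.37, with broad overlap. Its difference was 0.29 ± 0.15 (SE, limma adjusted p = 0.113), with a 95% confidence interval of -0.03 to 0.61 and a higher top in 14 of 20 samples. Iron-repleted rat 3 alone gave 2.96, and without it the difference was 0.13. Mttp passed the threshold at 0.56 with median centring (limma adjusted p = 0.00841) and at 0.44 on the values as deposited (limma adjusted p = 0.043). It also passed without iron-repleted rat 1 (0.38, limma adjusted p = 0.0368), without iron-repleted rat 2 (0.37, limma adjusted p = 0.0395) and with top and bottom unpaired (limma adjusted p = 0.0387).

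Fabp1 and Fabp2 encode the liver-type and the intestinal-type fatty acid binding proteins, which carry fatty acids through the cytosol. Fabp2 ran from 16.78 through 17.17 to 17.5 at the top and from 12.79 through 15.24 to 16.19 at the bottom, with no overlap. It was higher at the top by 2.18 ± 0.21 (SE, limma adjusted p = 1.44e-07) in 20 of 20 samples. Fabp1 ran from 17.84 through 18.03 to 18.11 at the top and from 15.48 through 17.75 to 18.11 at the bottom, so that the segments overlapped. It was higher at the top by 0.61 ± 0.18 (SE, limma adjusted p = 0.00815) in 16 of 20 samples. Its signal was among the 3 highest of the array in 18 of 22 top arrays and in 3 of 22 bottom arrays. Quantile normalization gives the same value to the same rank on every array, so the top levels of Fabp1 meet a ceiling of 18.11. With median centring in its place, the difference of Fabp1 was 1.04 (limma adjusted p = 0.000363).

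Cd36, a fatty acid translocase that binds long-chain fatty acids, ran from 11.48 in bb rat 3 through 13.09 to 14.59 at the top and from 10.4 through 11.45 to 12.42 at the bottom, with overlap between rats. Within each rat it was higher at the top in 20 of 20 samples, by 1.81 ± 0.18 (SE, limma adjusted p = 1.46e-07). Cd36 is also made by capillary endothelium, macrophages and fat cells. Of the markers of those cells, 3 of 7 endothelial, 5 of 7 macrophage and 2 of 5 adipocyte genes tested were called higher at the top too, and 1 macrophage gene lower, against 25.5% of all probe sets called higher. Their mean levels in the top arrays ran from 10.22 to 11.32, from 11.63 to 12.53 and from 8.53 to 9.96, against 10.01 to 11.19, 11.13 to 12.01 and 7.74 to 9.18 at the bottom. Their part in the Cd36 difference was not tested. Dgat1, which adds the last acyl chain to triglyceride, ran from 15.27 through 15.98 to 16.61 at the top and from 13.43 through 15.14 to 15.75 at the bottom. These ranges overlapped too, but within each sample the top was higher in 20 of 20, by 1.07 ± 0.14 (SE, limma adjusted p = 4.43e-06).

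**Figure D2:**
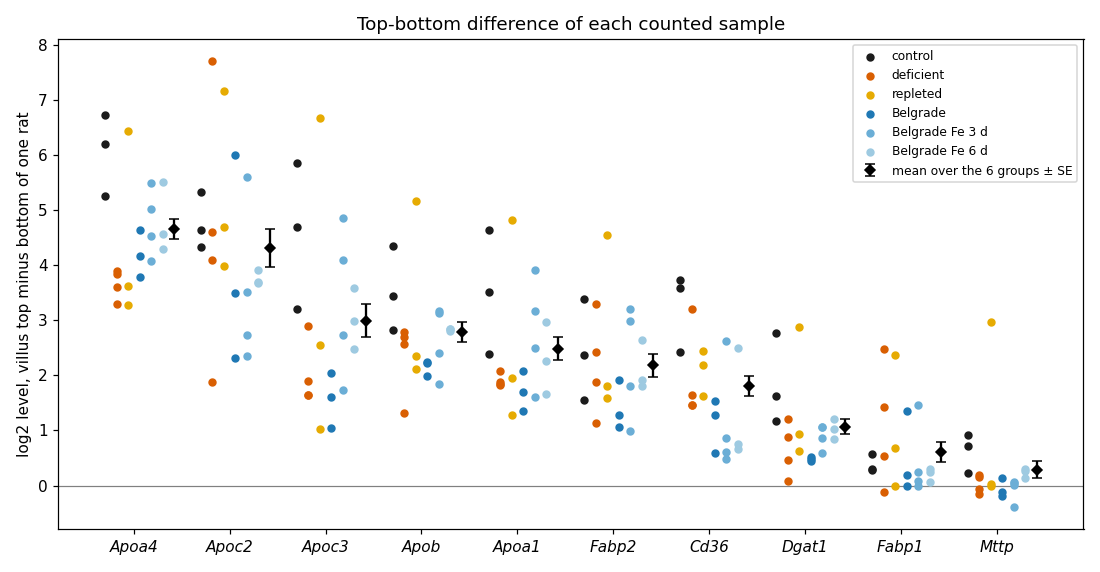
Difference of the log2 level between villus top and bottom of the same counted sample (vertical axis) for the 10 genes, coloured by group, with the mean over the 6 groups and its SE as diamonds. Apoa4 lay between 3.28 and 6.73 in all 20 samples, and Mttp lay near 0 in most samples, with iron-repleted rat 3 at 2.96.

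The top-bottom difference, called the gradient here, was also tested inside each group. Of the 11 probe sets, 9 were called higher in control rats (11.6% of all probe sets called higher), 9 in iron-deficient rats (13.6%) and 9 in iron-repleted rats (14.2%). The ninth in iron-deficient rats, Fabp1 at 1.08, lay at the threshold (limma adjusted p of 0.05 after rounding), and was not called without the filter on dim probe sets, with a smaller pseudocount or on the values as deposited (limma adjusted p of 0.0609, 0.0534 and 0.0532), nor without iron-deficient rat 1, 2 or 4 (0.162, 0.318 and 0.0643), control rats 1 and 2 (0.0607) or control rat 3 (0.0594). The count was 6 without iron-deficient rat 1. In bb rats the counts were 4 on a normal diet (7.48%), 8 after 3 days of iron (11.5%) and 9 after 6 days (10.4%). The 4 in bb rats on a normal diet were Apoa1, Apoa4, Apoc2 and the brighter Apob probe set. Their number was 2 without bb rat 4, and the count after 6 days of iron was 4 without rat 3 of that group. In bb rats on a normal diet the Apoa1 call (limma adjusted p = 0.0402) was lost whichever sample was left out (0.0984, 0.193 and 0.159). Likewise lost with any 1 sample of their group left out were Apoc3 in iron-deficient rats and Dgat1 after 3 days of iron. After 6 days of iron the same held for Cd36 and Dgat1. The counts inside groups come from tests of different groups, and whether the gradient differed between groups is given further on.

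Iron-repleted rat 3 had the lowest bottom level for 7 of the 11 probe sets, those of Apoa1, Apob (the brighter), Apoc3, Fabp1, Fabp2, Mttp and Dgat1. The lowest Apoa4 bottom level was that of control rat 3. Apoa1 was 12.62 in iron-repleted rat 3 and 12.88 in control rat 3, against 13.46 or more in the other bottom samples. These are the 2 bottom arrays with the highest stroma markers, given above. Without both samples, 10 of 11 probe sets were called along the villus, with a median of 2.21 and Apoa4 at 4.44.

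**Figure D3:**
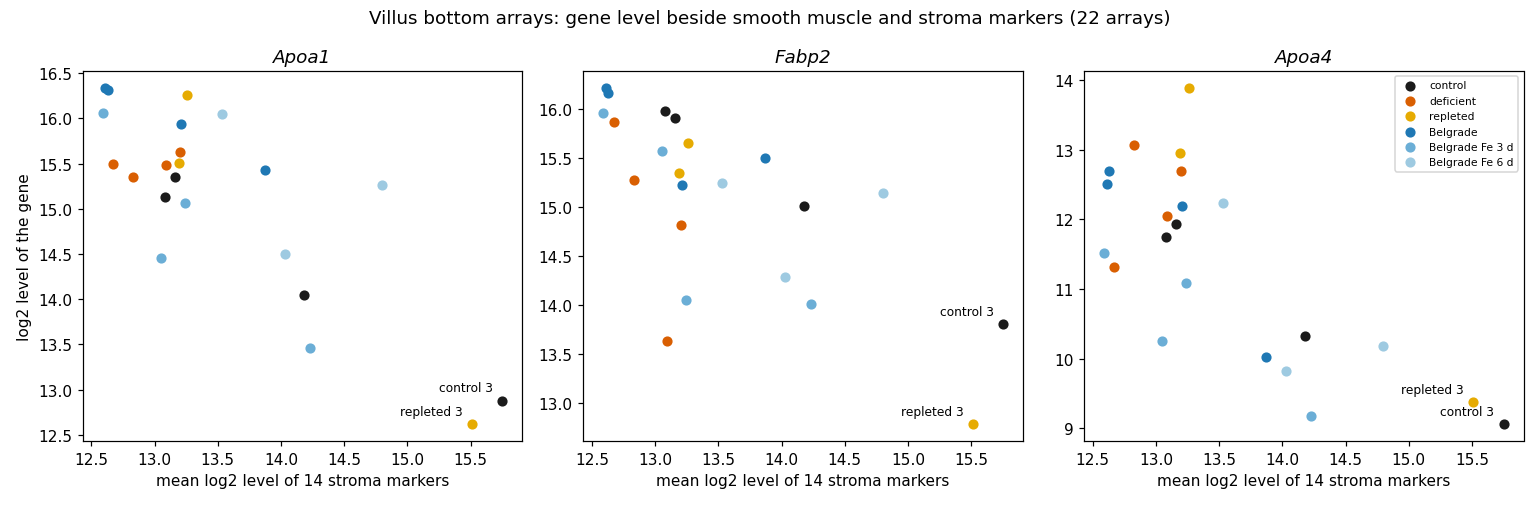
Log2 level of Apoa1, Fabp2 and Apoa4 (vertical axes) in the 22 villus bottom arrays beside the mean log2 level of 14 smooth muscle and stroma markers (horizontal axis), coloured by group. Control rat 3 and iron-repleted rat 3, with marker means of 15.75 and 15.51, had the 2 lowest values of Apoa1; in Apoa4 they were at 9.06 and 9.38, with rat 3 of the bb group given iron for 3 days at 9.18.

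Other genes of the pathway were taken from 5 lists. Their counts are read beside all probe sets, of which 25.5% were called higher at the top and 28.8% lower. Among genes of uptake and triglyceride resynthesis, 14 of 21 tested were called higher at the top and 3 lower, with a median of 1.25. The largest differences were those of Acsl3, an acyl-CoA synthetase, by 2.52 ± 0.09 (SE, limma adjusted p = 3.17e-12), Slc27a2, a fatty acid transporter and very long chain acyl-CoA synthetase (1.82), Lpin1, a phosphatidate phosphatase (1.78), and Plin2, a lipid droplet coat protein (1.6). Of chylomicron partners and the secretory route, 6 of 16 were called higher and 3 lower, with a median of 0.17, so that the share called at all was near that of all probe sets (54.2%). Cideb, which promotes lipid loading of lipoproteins, was higher by 2.42 ± 0.2 (SE, limma adjusted p = 1.58e-08). Apobec1, the enzyme that edits Apob messenger RNA to its short intestinal form, was higher by 1.98 in 20 of 20 samples, and Tm6sf2, which helps to lipidate lipoproteins, by 1.51. Apoe, a ligand for remnant uptake made by many cell types, was lower at the top, with a difference of -1 ± 0.24 (SE, limma adjusted p = 0.00174).

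Of 10 tested genes of cholesterol and phospholipid absorption, 7 were called higher and 3 lower, with a median of 0.81. Scarb1, a lipoprotein and lipid receptor of the brush border, was higher by 1.84, Lpcat3, which remodels phospholipids, by 1.33, and Nr1h3, the sterol sensor LXR alpha, by 1.28. Pla2g1b, the pancreatic phospholipase, was lower at the top, with a difference of -1.48 (limma adjusted p = 0.0123). The pancreas markers were high in 6 bottom arrays, as given above, and their part in this difference was not tested. Of 14 regulators tested, 6 were called higher and 3 lower, with a median of 0.26. Pparg, a nuclear receptor of fatty acids, had the largest difference of these, 3.45 ± 0.09 (SE, limma adjusted p = 2.7e-13), in 20 of 20 samples. Creb3l3, an intestinal and hepatic lipid regulator, was higher by 1.19 and Rxra, the partner of such receptors, by 0.94, while Nr2f2, an orphan nuclear receptor, was lower with -1.15. Of 16 genes of fatty acid oxidation, 4 were higher and 4 lower, with a median of -0.07, shares near those of all probe sets. Ehhadh (1.07), Pdk4 (1.04) and Acadm (0.98) were higher, and Decr1 was lower with -0.74.

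The genes whose pattern over the 40 counted arrays was most like the mean of the 10 genes were Ces2c (r = 0.966, rho = 0.935), Treh (0.966, rho = 0.955), Cdhr5 (0.964, rho = 0.938), Gk (0.963, rho = 0.957), Cyp2j4 (0.963, rho = 0.97) and Cdc42ep2 (0.962, rho = 0.941), of 12948 symbols compared. A correlation over 0.9 was held by 201 symbols. These arrays fall into top and bottom, which separates both the genes and these partners, and top and bottom arrays come in pairs from the same rats. The values describe that shared pattern and were not tested.

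The crypt arrays gave higher levels in the upper than in the lower array for all 11 probe sets. The difference ran from 0.18 for Mttp to 4.57 for Apoc2, which was 6.66 in the lower and 11.23 in the upper array. Apoa4 was 13.85 and 16.25, Apoa1 15.99 and 17.39, and Fabp1 16.12 and 17.79. The lower crypt level of Apoc2 lies near its lowest villus bottom level, 6.22, and so near background, which leaves its crypt difference imprecise. With 1 array of each there is no replicate check. The label of the upper crypt array was checked against markers. Its enterocyte list averaged 15.59, inside the range of the villus tops (14.8 to 16.31), and its crypt and cell cycle list 10.68, also inside that of the tops (9.3 to 11.36). The lower array had 14.13 and 12.53, both within the ranges of the villus bottoms (10.7 to 14.31 and 12.06 to 13.22).

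The next comparison asked whether iron deficiency or its repair changed these genes. None of the 11 probe sets was called in any of the 7 group comparisons on the mean of top and bottom (limma adjusted p of 0.229 or more). For iron-deficient against control rats, 0.404% of all probe sets were called, and for bb against control rats 0.0113%. For iron-repleted against control rats the share was 0.0679%, and it was 0 in the remaining 4 comparisons. At an unadjusted p under 0.05, 1 member passed in each of iron-deficient, iron-repleted and bb rats against control rats and in iron-repleted against iron-deficient rats, and 0 in the other comparisons. Of all probe sets, 14.1%, 15.1%, 6% and 12.8% passed it in those 4 comparisons, so 1 of 11 is near the background. The comparisons share groups, control rats or bb rats among them, and are not independent of each other. The 95% intervals for the difference of Apoa4 were -0.76 to 2.12 in iron-deficient and -1.27 to 1.8 in bb rats on a normal diet against control rats. Such intervals leave room for changes of more than 2-fold. For Mttp they were narrower, -0.43 to 0.25 and -0.41 to 0.31.

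In the top arrays alone, none of the 11 was called in iron-deficient against control rats, where 0.977% of all probe sets were called, and 2 passed an unadjusted p of 0.05, as did 12.5% of all probe sets. The differences were negative for 10 of 11 probe sets, with a median of -0.35 against -0.01 over all probe sets, but for 8 of 11 with median centring and 9 of 11 on the values as deposited. Dgat1 came closest, with 16.61, 16.50 and 16.39 in control rats and 15.87, 15.38, 15.27 and 16.33 in iron-deficient rats, which did not overlap. Its difference was -0.79 ± 0.21 (SE, limma adjusted p = 0.075, 95% interval -1.22 to -0.35). It passed the threshold without iron-deficient rat 4, at -0.99 (limma adjusted p = 0.0129), and with all 22 rats counted separately, at -0.81 (limma adjusted p = 0.0178). After repletion Dgat1 was 16.25, 16.14 and 16.30, between the deficient and the control means.

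Apoc3 in the top arrays was 16.60, 16.40 and 16.14 in control rats and 15.74, 15.39, 15.18 and 15.98 in iron-deficient rats, without overlap and with a difference of -0.81 ± 0.32 (SE, limma adjusted p = 0.268). Apoa1 also did not overlap, with a difference of -0.17, at ranks where quantile normalization assigns nearly the same value in each array. These 3 of 11 compare with 14.8% of all probe sets that did not overlap between these groups. Cd36 was 14.59, 13.34 and 14.29 in control rats and 13.03, 12.48, 12.81 and 14.54 in iron-deficient rats, a difference of -0.85 ± 0.43 (SE, limma adjusted p = 0.434). Its deficient rat 4 lay among the control rats. Of the 7 enterocyte markers, 2 were called lower in these top arrays, with a median of -0.71 over the list and means per array of 14.8 to 15.62 against 15.74 to 16.31 in control rats. Their part in the values of these genes was not tested.

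In bb rats on a normal diet against control rats, none of the 11 was called in the top arrays (0.0905% of all probe sets), and 4 passed an unadjusted p of 0.05, as did 6.56% of all probe sets. The differences were negative for 10 of 11, with a median of -0.55, and for 9 of 11 with median centring or on the values as deposited. Cd36 was 13.05, 11.48 and 13.12 in bb rats, below all control rats, a difference of -1.52 ± 0.46 (SE, limma adjusted p = 0.31). With the rat number as a replicate block its limma adjusted p was 0.0482. Same-number rats of these 2 groups had correlations of 0.07 to 0.12 over all probe sets and of 0.3 to 0.46 over the brightest 20%. Apoc2 was 13.96, 12.11 and 13.38 in bb rats and 14.47, 14.43 and 14.31 in control rats, also without overlap, a difference of -1.25 ± 0.42 (SE, limma adjusted p = 0.412). Apoc3 differed by -1.07 ± 0.34 (SE, limma adjusted p = 0.358), and by -1.55 without the averaged bb rats 1 and 2 (limma adjusted p = 0.0484). Cd36, Apoc2 and Dgat1 were the 3 without overlap, against 14.5% of all probe sets. The lowest top value of Apoc2, Apoc3, Fabp2 and Cd36 among all 20 samples was that of bb rat 3.

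In the bottom arrays, none was called in either comparison (0 and 0.00377% of all probe sets), with 1 and 3 members at an unadjusted p under 0.05, against 13% and 6.51% of all probe sets. Here 8 of 11 differences were positive in iron-deficient and 9 of 11 in bb rats, and 9 and 10 with median centring or on the values as deposited. Apoa4 differed by 1.88 ± 0.9 (SE, limma adjusted p = 0.388) in iron-deficient rats, Apoc3 by 1.75 ± 0.87 (SE, limma adjusted p = 0.406) and Apoa1 by 1.43 ± 0.68 (SE, limma adjusted p = 0.378). In bb rats Apoa1 differed by 1.84 ± 0.72 (SE, limma adjusted p = 0.747). Apoa1 at the bottom was 15.24, 12.88 and 14.05 in control rats and 15.63, 15.49, 15.50 and 15.35 in iron-deficient rats, without overlap. Apoa1 and Cd36 were the 2 without overlap in iron-deficient rats (13.1% of all probe sets), and Apoa1 and the dimmer Apob probe set those in bb rats (14.2%). The low control value of Apoa1 is that of rat 3. Without control rat 3 and iron-repleted rat 3, the median over the 11 probe sets moved from 0.44 to 0.32 in iron-deficient rats, with 6 positive, and from 0.82 to 0.52 in bb rats, with 9 positive. All 14 stroma markers were lower in both groups than in control rats at the bottom, with medians of -1.41 and -1.09 and none called. All 7 enterocyte markers were higher, with medians of 1.13 and 0.88 and none called. In control rats the stroma means per array ran from 13.08 through a median of 13.67 to 15.75 in rat 3. The enterocyte means there ran from 11.39 through 13.28 to 14.05. These marker differences were not refitted without control rat 3. The part of these markers in the bottom values was not tested.

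**Figure D4:**
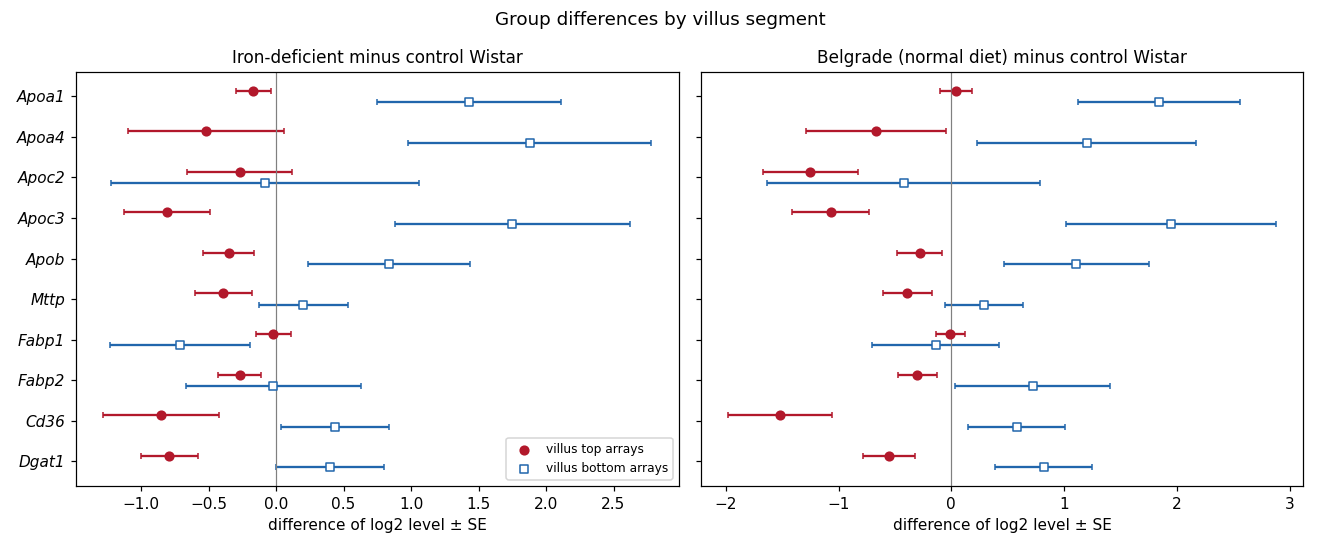
Difference of the log2 level (horizontal axis, ± SE) between iron-deficient and control Wistar rats (left) and between Belgrade and control rats on a normal diet (right), for the 10 genes in the villus top (filled) and bottom (open) arrays. None was called; in the top arrays Cd36 lay at -0.85 and -1.52 and Dgat1 at -0.79 and -0.55, and in the bottom arrays Apoa1 lay at 1.43 and 1.84.

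Whether the gradient in iron-deficient and bb rats differed from that in control rats was tested directly. The differences of the gradients were negative for 10 of 11 probe sets in each comparison, with medians of -1.19 and -1.39, and both use the same control rats. Without control rat 3 and iron-repleted rat 3 the medians were -0.79, with 8 negative, and -0.98, with 10 negative. None was called (0% of all probe sets in each), and 5 and 7 members passed an unadjusted p of 0.05, as did 9.04% and 6.45% of all probe sets. For Apoa4 the difference of the gradients was -2.4 ± 0.6 (SE, limma adjusted p = 0.296) in iron-deficient and -1.86 ± 0.64 (SE, limma adjusted p = 0.709) in bb rats. In iron-deficient rats it passed the threshold when iron-repleted rat 3, which belongs to neither group, was left out of the shared spread (limma adjusted p = 0.0362). The Apoa4 gradient ran from 5.26 to 6.73 in control rats and from 3.3 to 3.9 in iron-deficient rats. The share of all probe sets whose gradients did not overlap between groups was not counted, so this separation has no background to be read against. The largest differences in bb rats were -3.36 ± 1.12 for the dimmer Apob probe set and -3.02 ± 1.09 for Apoc3 (SE, limma adjusted p = 0.706 and 0.712).

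Iron given to deficient or bb rats changed none of the 11 probe sets by the test. In iron-repleted against iron-deficient rats 0% of all probe sets were called, in the mean, the top arrays and the bottom arrays alike, with 1 member at an unadjusted p under 0.05 in each, against 12.8%, 12.5% and 12.4% of all probe sets, which is near the background. In the gradient 0.00377% were called, and 0.00754% against control rats, with no member among them. Cd36 had the largest difference on the mean, 0.8 ± 0.32 (SE, limma adjusted p = 0.311). At the top Cd36 was 14.48, 13.93 and 13.84 after repletion, within the range of the deficient rats through their rat 4. Against control rats, 0.207% of probe sets were called at the top and 0% at the bottom. Cd36 at the bottom was 12.03, 12.31 and 11.66 after repletion and 11, 10.92 and 10.56 in control rats, without overlap, a difference of 1.17 ± 0.43 (SE, limma adjusted p = 0.331). Cd36 and the dimmer Apob probe set were the 2 of 11 without overlap there, against 14.6% of all probe sets. In bb rats, 3 and 6 days of iron gave differences on the mean of -0.8 to 0.47 and of -0.77 to 0.89, with limma adjusted p of 0.999 or more, no probe set called and 0 members at an unadjusted p under 0.05.

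Among the other pathway genes, 3 calls were made between groups, all lower in iron-deficient than in control rats. In the top arrays of these rats the enterocyte list was at 14.8 to 15.62 against 15.74 to 16.31, and the red blood cell list of 3 genes at 11.44 to 13.33 against 10.72 to 11.02, with 1 of 3 called higher and a median difference of 2.5. On the mean of both segments 0 of those 3 were called, with a median of 1.28. The part of these cell types in the 3 calls was not tested. Slc27a2 at the top was 13.74, 12.94 and 13.36 in control rats and 9.36, 10.35, 9.81 and 12.06 in iron-deficient rats, a difference of -2.95 ± 0.6 (SE, limma adjusted p = 0.0185). The call was lost in 5 of 18 alternatives, up to an adjusted p of 0.13 in limma without control rats 1 and 2; the others were leaving out control rat 4, iron-deficient rat 1 or iron-deficient rat 2, and a fit without the trend. Abcg8, a subunit of the sterol exporter of the brush border, was 12.92, 10.90 and 12.02 at the top in control rats and 9.80, 9.36, 8.37 and 10.75 in iron-deficient rats, a difference of -2.38 ± 0.56 (SE, limma adjusted p = 0.0405). Abca1, the cholesterol exporter that builds high density lipoprotein with Apoa1, fell by 1.15 ± 0.23 on the mean of both segments (SE, limma adjusted p = 0.035). Abcg8 was lost in 7 and Abca1 in 10 of 18 alternatives, among them leaving out control rats 1 and 2, control rat 4, or iron-deficient rats 1, 2 or 3 for both, and control rat 3 for Abca1 (limma adjusted p up to 0.284 and 0.155).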

How the data were processed

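The deposited table holds array intensity values on a linear scale for 46 arrays, and how the authors summarised probes into signals is not given in the sources used here. Per the deposited values, the authors had scaled 42 arrays to a trimmed mean near 2501 and 4 arrays to 2876, both segments of control rat 3 and of rat 3 of the 3-day iron group. A pseudocount of 43.5, the 10th percentile, was added, log2 taken, and the 44 villus arrays quantile normalized (limma version 3.58.1, R version 4.3.3, data.table version 1.17.8). The crypt arrays were mapped to the same quantiles. Of 31099 probe sets, 57 controls were left out; 26517 exceeded the 40th percentile of the array in 3 or more villus arrays. Of the 31042, 20826 had 1 gene symbol, 436 several and 9780 none.

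Rats whose arrays differed by a robust SD under 0.2 (0.147 to 0.179, against 0.231 to 0.729 for other pairs) were counted as 1 sample. Groups were fitted in 1 limma model (lmFit, eBayes with a trend), top against bottom on the difference within each rat. In the fits of that difference the trend ran over its mean, not over the level of the probe set. P-values are two-sided, with Benjamini-Hochberg adjustment across the 26517, called under 0.05; they measure the spread between rats. Fits were tested on simulated normal values with each probe set's own spread. For iron-deficient against control rats, 23.9% of added changes of 1 on the log2 scale were called, 71.6% of 2 and 93.9% of 3. For top against bottom, 17.9% of added changes of 0.5 were called, 49.3% of 1 and 50% of 2. There every other probe set was simulated with a difference of 0, whereas 54.2% were called in the data. Because the trend runs over the mean difference, these top-bottom shares do not give the sensitivity of that test in the data. The group test thus missed most changes of 2-fold. Named were all members and, of each pathway list, up to 4 called genes by size. Members, lists and tests were chosen with earlier results of these data known.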

Additional observations from a re-analysis of the deposited data

Results flagged for a closer look

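Of 44 sets of 4 samples checked (11 probe sets, 2 segments, the 2 groups of 4), 2 held a sample far from the others, and chance gives about 5% of such sets. Both were Fabp1 in bb rats given iron for 3 days. Rat 1 was at 18.11 at the top and the other 3 were at 18.03, the values that quantile normalization gives to the highest ranks of an array. Rat 4 was at 16.57 at the bottom, against 17.79 to 18.03 in the others. All 11 exocrine pancreas markers exceeded the 40th percentile in that bottom array, and their part in its Fabp1 level was not tested.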

How the results depend on the processing

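Over 30 alternatives for top against bottom, 10 or 11 of 11 probe sets were called. The 2 scalings and leaving out each sample were among them, and no called difference turned its sign. Mttp changed its call, as given above. The counts inside groups ranged over 8 to 10 in control, 6 to 10 in iron-deficient and 7 to 11 in iron-repleted rats, and over 2 to 6, 6 to 8 and 4 to 9 in bb rats with 0, 3 and 6 days of iron. Between groups the count was 0 except in 5 cases of 1 call each. In top arrays these were Dgat1 in iron-deficient against control rats with all 22 rats counted separately and without iron-deficient rat 4 (0 or 1 over the samples left out), Cd36 in bb against control rats with the replicate block, and Apoc3 there without bb rats 1 and 2 (0 or 1). The last was Apoa4 in the gradient of iron-deficient against control rats without iron-repleted rat 3 (0 or 1). Uncalled differences on the mean changed sign 11 times in 198 for iron-deficient and 17 times in 187 for bb against control rats. On the values as deposited the median of all probe sets moved to -0.14 in iron-deficient against control rats. The 20 other pathway differences named along the villus were called in 600 of 600 fits; the 3 between groups in 32 of 54. Added after seeing the data were the fit without control rat 3 and iron-repleted rat 3, and a trend over the mean level, in which 10 members were called along the villus and 6 in bb rats. Same-number rats were not taken as pairs: over all probe sets, 0 of 15 pairs of groups had every same-number correlation over 0.1, and 2 of 15 over the brightest 20%, control with iron-repleted (0.12 to 0.35) and control with bb rats (0.3 to 0.46). The replicate block changed 1 call, that of Cd36 in bb against control rats, which are one of those pairs. Top and bottom of a sample correlated best with each other in 14 of 20. They did so in no iron-repleted sample, where the correlations were 0.098, -0.025 and -0.055 in rats 1, 2 and 3. The other exceptions were control rat 3 and rats 1 and 3 of the 6-day iron group. In iron-repleted rats the pairing of top and bottom thus rests on the labels. Dim bottom values of Apoc2 and of the second Apob probe set, and the ceiling of Fabp1, limit those differences.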
